A study of Rattus norvegicus with 8 samples.

Results

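Smooth muscle cells cultured from rat pulmonary arteries were kept with GSNO (S-nitrosoglutathione, which releases nitric oxide) for 4 h and compared with such cells kept with it for 2 h, so the comparison describes what still changed after the second hour. It rests on 4 of the 8 arrays of the series, 2 at each time, and on all 8740 of 8799 probe sets that are not the manufacturer's control features. The cells were primary cultures, grown out of pulmonary arteries of adult Sprague-Dawley rats after endothelium and adventitia had been stripped off. The other 4 arrays hold untreated cells (called control here), for which no time in culture is given, and cells exposed to GSNO for 1 h. The labels give the GSNO concentration as 100 µmol/L in the design and as 100 mmol/L in the sample records, and neither is taken as fact here. The arrays of each group carry the numbers 1 and 2, and the design speaks of 2 independent preparations without saying that a number is a preparation, so p-values measure the spread between these arrays, which may be technical.

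Nitric oxide binds the haem of soluble guanylate cyclase, a dimer of an alpha and a beta subunit, and the cyclic GMP that the enzyme then makes relaxes vascular smooth muscle. GSNO can also transfer its nitroso group to protein thiols. Modified thiols of KEAP1 release the transcription factor NRF2, which drives genes of glutathione synthesis, detoxification and NADPH supply. Genes with a cyclic AMP response element and other immediate early genes answer within the first hour of many stimuli and often decline soon after.

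The unit throughout is the MAS 5.0 signal of a probe set on an array, and a change is a difference of log2(signal + 21.1), where 21.1 is the median over arrays of each array's 20th percentile, so that the change of dim probe sets is understated. Of the 8740 probe sets, 5877 reached the 40th percentile of the array on at least 2 of the 8 arrays and were tested, and 4841 of these carry exactly 1 gene symbol, for 3474 genes. The median signal per array lay between 100.0, on 4 h array 1, and 141, on 2 h array 1. The 20th percentile was 38.1 on 2 h array 1, 16.4 on 4 h array 1, 19.1 on 2 h array 2 and 17.6 on 4 h array 2, so dim probe sets read lower at 4 h in the arrays numbered 1. The median change of all tested probe sets from 2 h to 4 h was -0.15 in the arrays numbered 1 and -0.01 in those numbered 2. The arrays numbered 1 and 2 differed in scan day, fluidics protocol and chip lot. Among the arrays numbered 1, the records place 2 h and 4 h in different experiments on the same chip lot, so time and recorded experiment cannot be told apart there. The arrays numbered 2 share 1 recorded experiment. The change within each number is therefore given beside many of the called changes.

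The labelled cell type was checked against its markers. Acta2, the smooth muscle actin, had signals from 10882 to 18548 on the 4 arrays compared, and its change from 2 h to 4 h was 0.11. Of 10 smooth muscle markers 8 were on the array and 7 were kept, with desmin (Des) below 30 on every array. Of 15 endothelial markers 8 were on the array and 4 were kept (Pecam1, Flt1, Nos3 and Thbd), while others, among them Vwf and Kdr, were not. Of 21 leukocyte markers 4 were kept of 16 on the array, and of 14 lung epithelial markers 5 of 12. All 7 fibroblast markers on the array were kept, and their summed signal was 20081 and 27501 at 2 h and 26487 and 21864 at 4 h. The summed signal of the 8 endothelial markers was 1564 and 2135 at 2 h and 1474 and 2700 at 4 h. Most of it was Thbd, at 1052 and 1705 at 2 h and 1123 and 2124 at 4 h. Another Thbd probe set was called higher at 1 h than control, so this sum does not measure endothelial content. Apart from Pln and Dcn, described below, no marker passed. Those aside, the widest differences were those of Cald1 (-0.45) and Actg2 (0.30) for smooth muscle and Nos3 (0.32) and Flt1 (0.24) for endothelium. For fibroblasts it was Col3a1 (-0.62), for leukocytes Ptprc (-0.78) and Cd74 (-0.31), and for epithelium Sftpb (-0.48) and Krt18 (-0.46). Most of these differed in sign between the numbers. For heart muscle it was Tnni3 (1.12), which at 2 h was at 12.4 and 18.5, under the 40th percentile on both arrays. The 13 kept heart and skeletal muscle markers leaned the other way, with a median change of -0.48. In both numbers 7 of them (53.8%) were lower and 1 (7.69%) higher, against 35.4% and 24.3% of all tested probe sets.

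From 2 h to 4 h, 32 of the 5877 tested probe sets changed (limma with the array number as a block, Benjamini-Hochberg adjusted p under 0.05), which is 0.544% of those tested. Of these, 12 (0.204%) rose, for 10 named genes, and 20 (0.340%) fell, for 16 named genes. The rises lay between 0.92 and 2.76 log2 units and the falls between -1.11 and -2.55, leaving out Dcn, whose 4 h signals were too low to size its fall. All 32 moved the same way in both array numbers, and in all 32 the 2 arrays at 4 h did not overlap the 2 arrays at 2 h. Among all tested probe sets, 24.3% were higher and 35.4% lower in both numbers. Likewise 11.9% had both 4 h arrays above both 2 h arrays and 19.9% had both below. The 32 were called on these same arrays, so both counts alone say little. A change of 2-fold or more in the same direction in both array numbers was seen for 108 probe sets (1.84%), 39 higher and 69 lower, and 26 of the 32 called were among them.

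The calls depended on the block. Without it 0 probe sets passed the adjusted threshold in limma, with 330 at an unadjusted p under 0.05 and a smallest adjusted p of 0.164, for Gucy1b1. With the recorded experiment as the block in place of the array number, 1 probe set (0.0170%) passed, again Gucy1b1 (change -2.47, adjusted p = 0.0234). Without 2 h array 2 only Gucy1b1 of the 32 was still called, and without 2 h array 1 only 7 of the 32 were. The sign of all 32 changes was kept in every setting tried, except that the filter at the 60th percentile tested 31 of them. These settings refit the arrays on which the 32 were called, so a kept sign adds little. The 32 were called in 3 (Sdc3) to 18 (Gucy1b1) of the 19 alternative settings. Plpp1 was called in 5 and 7 on its 2 probe sets, Srebf1 in 6, Bcat1 in 7 and Gda in 8. Scaling the arrays to a common median gave 13 higher and 10 lower, in place of 12 and 20, and moved the median change of all tested probe sets from -0.09 to 0.03.

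**Figure D1:**
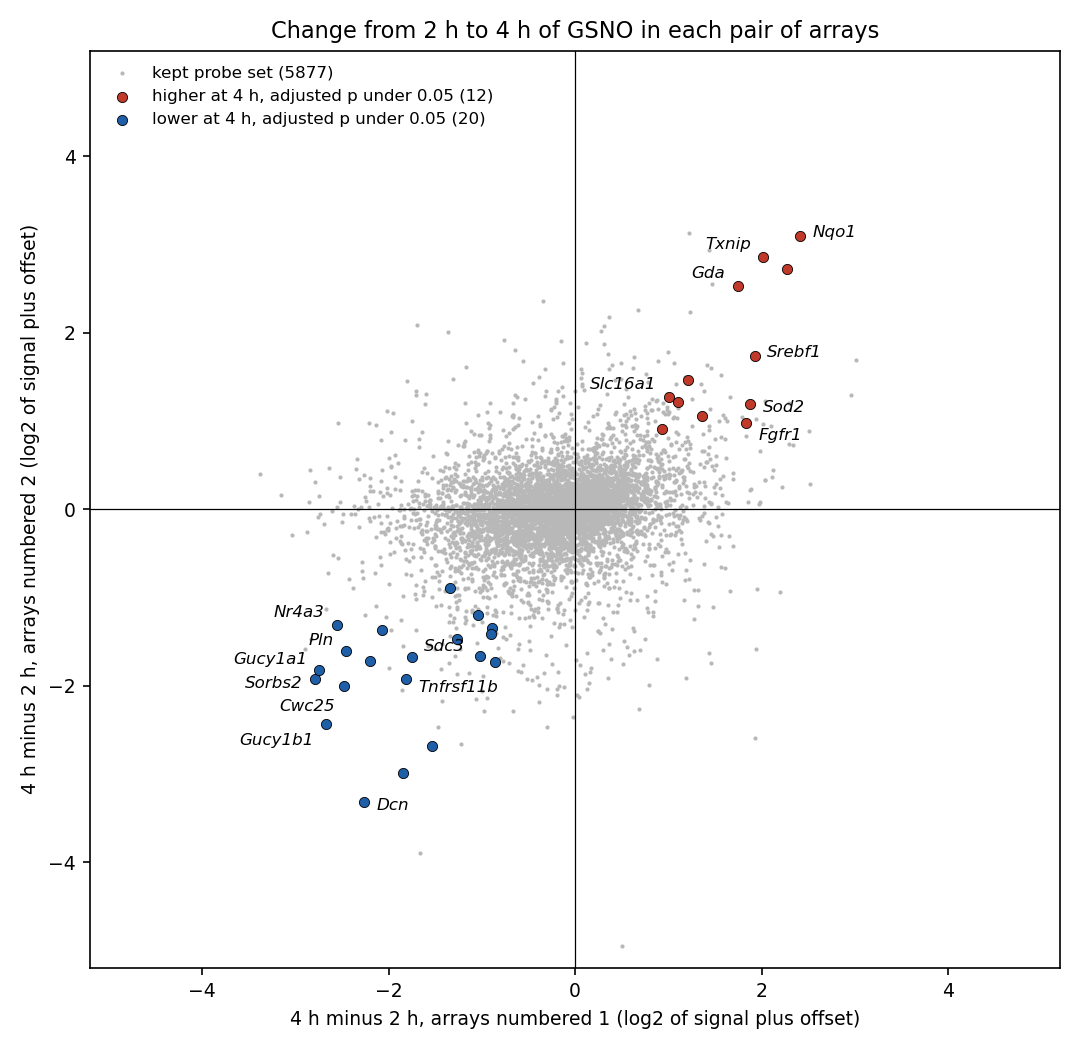
Change from 2 h to 4 h of GSNO in log2(signal + 21.1) for the 5877 tested probe sets, with the arrays numbered 1 on the horizontal axis and those numbered 2 on the vertical axis. The 12 red points (called higher) lie in the upper right corner and the 20 blue points (called lower) in the lower left, with Gucy1b1 at -2.67 and -2.44.

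Both subunits of soluble guanylate cyclase fell after the second hour. The beta 1 subunit gene Gucy1b1 (probe set rc_AI233225_at) had signals of 2116 and 1459.9 on the 2 h arrays and 315 and 253 on the 4 h arrays, against 3249 and 2273 in control and 3041 and 2267 at 1 h. Both 4 h arrays lay below the other 6. The change from 2 h to 4 h was -2.55 ± 0.17 (SE), a 5.86-fold fall, with an adjusted p of 1.9e-04, and it was -2.67 in the arrays numbered 1 and -2.44 in those numbered 2. It was called in 18 of the 19 settings that test it, the exception being the fit without a block, and in all 8 that leave out an array.

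The alpha 1 subunit gene Gucy1a1 (rc_AA849036_at) had signals of 843 and 2204 at 2 h and 108 and 610.2 at 4 h, against 1831 and 3633 in control. Its 2 array numbers stood at different levels in every group, and within each number the 4 h array was the lowest. The change was -2.28 ± 0.29 (SE), a 4.86-fold fall (adjusted p = 0.0127), and it was -2.74 and -1.82 in the arrays numbered 1 and 2. Against control, which shares the 2 h arrays with this comparison, the change at 2 h was -0.62 for Gucy1b1 (adjusted p = 0.0969) and -0.91 for Gucy1a1 (adjusted p = 0.192), neither past the threshold. At 4 h the changes against control were -3.17 and -3.19. Over all tested probe sets, 2.19% were called higher and 0.970% lower than control at 2 h, and 4.25% higher and 3.68% lower at 4 h.

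In the RefSeq gene table (GRCr8) both genes lie on chromosome 2, with 1 gene and no protein-coding gene wholly between them. Their start regions are shown because the 2 subunits fell together. Each runs from 250 bases before a RefSeq start site to 50 after it, 5′ to 3′ on the gene's strand. Capitals mark the core of the antioxidant response element to which NRF2 binds, TGACNNNGC, searched on both strands. It begins 243 bases before the start of Gucy1b1 as TGACTCTGC, and these letters are not in the Gucy1a1 window. Of all 33469 promoters of the same length in the table, 12.1% hold this core.
Gucy1b1, chr2:169696938-169697237, minus strand: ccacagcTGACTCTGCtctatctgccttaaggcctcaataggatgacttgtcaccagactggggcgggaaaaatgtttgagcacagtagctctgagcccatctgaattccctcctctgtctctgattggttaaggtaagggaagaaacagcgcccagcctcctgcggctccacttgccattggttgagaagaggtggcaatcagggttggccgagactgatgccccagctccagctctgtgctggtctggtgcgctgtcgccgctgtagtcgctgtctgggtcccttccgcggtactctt
Gucy1a1, chr2:169779574-169779873, minus strand: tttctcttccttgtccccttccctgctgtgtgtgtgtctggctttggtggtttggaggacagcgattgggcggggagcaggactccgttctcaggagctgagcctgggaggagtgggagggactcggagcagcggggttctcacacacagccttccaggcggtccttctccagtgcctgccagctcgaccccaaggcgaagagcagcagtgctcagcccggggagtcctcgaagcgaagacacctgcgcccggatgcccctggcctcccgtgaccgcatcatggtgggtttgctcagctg

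The third called gene of the cyclic GMP list was Pln, phospholamban, which holds back the calcium pump of the sarcoplasmic reticulum and is a substrate of cyclic GMP-dependent protein kinase. Its signals were 916 and 351 at 2 h and 149.7 and 101 at 4 h, against 1560.2 and 705 in control. Both 4 h arrays lay below all others, and the change was -2.03 ± 0.24 (SE; adjusted p = 0.0121), with -2.46 and -1.61 in the 2 numbers. Pln is also on the list of cardiac and skeletal muscle markers, whose 17 genes on the array summed to 5321 and 2559 at 2 h and 2993 and 1971 at 4 h. The part of other cells in its fall was not tested.

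The other 16 of the 19 measured genes of nitric oxide and cyclic GMP signalling did not pass. The list's median change was -0.18, against -0.09 over all tested probe sets, and 3 called of 19 stands beside 0.544% of all. In both array numbers 8 members (42.1%) were lower and 2 (10.5%) higher, against 35.4% and 24.3% of all tested probe sets. Itpr1, the inositol trisphosphate receptor that releases stored calcium, missed the threshold narrowly, with 768 and 1103 at 2 h and 327 and 586 at 4 h (change -1.04, adjusted p = 0.0541). The natriuretic peptide receptor Npr1, a guanylate cyclase of the cell surface, changed by -0.66 (adjusted p = 0.251). The phosphodiesterases Pde5a and Pde3b changed by -0.11 and -0.00, far inside their SEs of 0.39 and 0.28. The second beta subunit, Gucy1b2, was dim on all 4 arrays, between 66.3 and 94.1.

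**Figure D2:**
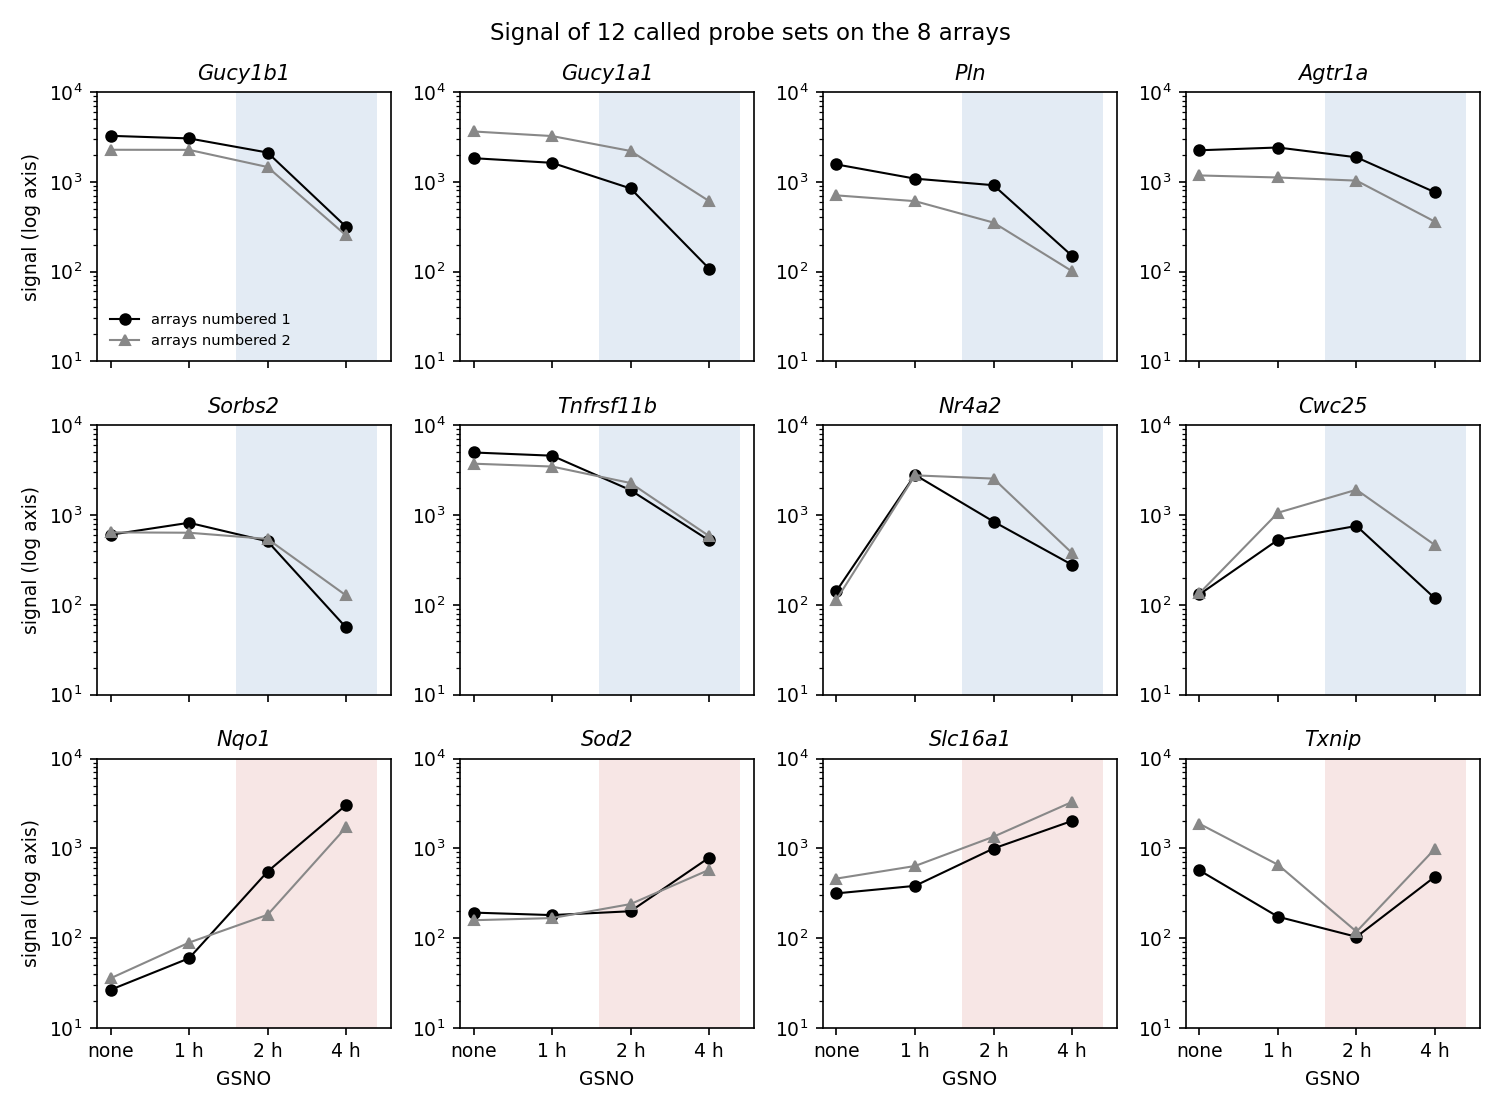
Signal of 12 called probe sets on the 8 arrays (logarithmic axis), over the 4 groups in order of exposure and not spaced by time, with circles and triangles for the arrays numbered 1 and 2. The shaded span covers 2 h and 4 h, blue for the 8 probe sets that fell and red for the 4 that rose; Gucy1b1 drops from 2116 and 1459.9 to 315 and 253, and Nqo1 climbs from 550.3 and 182 to 3030.4 and 1709.6.

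Tnfrsf11b, Agtr1a, Grb14 and Plpp1 each fell on at least 1 probe set. Tnfrsf11b, the secreted decoy receptor osteoprotegerin, had signals of 1894 and 2273 at 2 h and 522 and 584 at 4 h (change -1.87 ± 0.21 SE, adjusted p = 0.00819). In control it stood at 4974 and 3732, and its change against control was -1.05 at 2 h and -2.92 at 4 h. The 2 numbers gave nearly the same change, -1.82 and -1.92. Agtr1a, the angiotensin II receptor type 1a, fell from 1873 and 1029.9 to 763 and 359 on the probe set M86912exon_g_at (change -1.37 ± 0.17 SE, with -1.27 and -1.47 in the 2 numbers, adjusted p = 0.0127). Its brightest probe set, M86912exon_at, went from 2253 and 1472 to 1388 and 641 and was not called (change -0.93, adjusted p = 0.0864). Both probe sets moved the same way in both numbers. Grb14, an adaptor that restrains the insulin receptor, fell from 2857 and 2474 to 1401 and 765 (change -1.34, adjusted p = 0.0315). Plpp1, a membrane phosphatase of lysophosphatidic acid, fell on 2 of its probe sets by 1.12 and 1.15 log2 units.

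Of the 31 measured vasoactive receptors and ligands, 0 passed on their brightest probe set, and Agtr1a passed on another, beside 0.544% called of all tested probe sets. The list's median change was -0.38, against -0.09 over all tested probe sets. It was -0.45 in the arrays numbered 1 and -0.13 in those numbered 2, against -0.15 and -0.01 over all. In both numbers 15 members (48.4%) were lower and 3 (9.68%) higher, against 35.4% and 24.3% of all. The widest difference was that of Ace, the angiotensin-converting enzyme, which was at 208 and 147 at 2 h and at 88.9 and 16.9 at 4 h and did not pass (adjusted p = 0.219). Among the brighter ones, the orphan receptor Gpr176 went from 1098 and 2111 to 633 and 760.1 (change -1.11, adjusted p = 0.0530), just outside the threshold. The thrombin receptor F2r differed by -0.10, less than its SE of 0.17. Edn1, which encodes the constrictor endothelin 1, was at 74.9 and 86.3 at 2 h and at 243 and 67.7 at 4 h, so its 2 numbers moved in opposite directions. In control Edn1 was at 1866 and 1056.

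In the TGF-beta and BMP pathway, 1 of 29 measured genes changed on its brightest probe set, against 0.544% of all. That gene was Bmp3, a BMP family ligand, which fell from 365 and 854 to 62.9 and 244 (change -1.96 ± 0.26 SE, with -2.20 and -1.72 in the 2 numbers, adjusted p = 0.0157). The pathway's median change was -0.26, against -0.09 over all, with -0.27 in the arrays numbered 1 and -0.08 in those numbered 2. In both numbers 12 members (41.4%) were lower and 5 (17.2%) higher, against 35.4% and 24.3% of all. Id3, an inhibitor of basic helix-loop-helix factors, fell on AF000942_at from 1454 and 2257 to 792 and 666 (change -1.29, adjusted p = 0.0442), while its brighter probe set had a change of -0.86 (adjusted p = 0.0797). Tgfb3, a ligand, went from 3266 and 2117 to 1112 and 1052 and lay just outside the threshold (change -1.27, adjusted p = 0.0508). Tgfb1 differed the other way, with 848 and 886 at 2 h and 1631 and 1323 at 4 h (change 0.75, adjusted p = 0.197). The receptor and Smad genes measured did not pass.

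A pair of genes for proteins that sit on actin filaments fell while the bright contractile genes did not pass. Sorbs2, an adaptor at stress fibres and cell adhesions, went from 509.6 and 542 to 55.9 and 127 (change -2.36 ± 0.30 SE, with -2.78 and -1.93 in the 2 numbers, adjusted p = 0.0127), and the lower 4 h array was under the 40th percentile of its array. Its other kept probe sets gave -1.15 and -1.64 and were not called. Nexn, which encodes the actin-binding protein nexilin, fell from 695 and 1071 to 149 and 402 (change -1.72, adjusted p = 0.0325). The other 19 of the 21 measured contractile genes did not pass, beside the 0.544% called of all tested probe sets, and the list's median change was -0.08. Acta2 changed by 0.11, Tagln by 0.17, Myl9 by 0.20 and the smooth muscle myosin gene Myh11 by -0.08, each with an SE between 0.16 and 0.18. Pdlim1, a filament-linked LIM protein gene outside that list, was just outside the threshold, going from 5836 and 7019.8 to 3558 and 3659 (change -0.82, adjusted p = 0.0530).

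Of 42 matrix and remodelling genes 1 changed, against 0.544% of all, and the list's median change was 0.00. That gene was Dcn, the proteoglycan decorin, whose dim probe set X59859_i_at read 158 and 372 at 2 h and 16.0 and 18.5 at 4 h (adjusted p = 0.0240). Both 4 h signals lay about at their array's 20th percentile, so no size is given for this fall. Both 4 h arrays were under the 40th percentile, and so were both 1 h arrays, at 16.1 and 25.9, while control stood at 170.4 and 199.9. The probe set thus alternated between groups in both array numbers. Another probe set of Dcn gave a change of -0.52 and was not called. Sdc3, a cell surface proteoglycan of the syndecan family, fell from 268 and 339.8 to 64.5 and 92.3 (change -1.71, adjusted p = 0.0442). Vcan, the proteoglycan versican, had the next widest difference of the matrix list, 0.98, and did not pass (adjusted p = 0.270).

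The orphan nuclear receptors Nr4a2 and Nr4a3, transcription factors of the early response, fell over the same interval. Nr4a2 had signals of 143 and 114 in control and 2802 and 2768 at 1 h on the probe set U01146_s_at. It went from 846 and 2545 at 2 h to 279 and 378 at 4 h (change -2.11 ± 0.37 SE, with -1.53 and -2.69 in the 2 numbers, adjusted p = 0.0442), and a second probe set, L08595_at, fell by 2.42 log2 units. The 2 h arrays differed widely from each other, and both 4 h arrays lay below both of them. Its relative Nr4a3 fell on the dimmer probe set X86003_at (change -1.93, adjusted p = 0.0461), with 1 of the 4 h arrays under the 40th percentile. On the brighter one it went from 3547 and 3712 to 971 and 1256, which did not pass (change -1.70, adjusted p = 0.0858). Nr4a1 went from 4495 and 8207 to 1763 and 3020.3 (change -1.39, adjusted p = 0.218). All 3 genes had a lower 4 h than 2 h signal in both numbers.

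Of the 29 measured immediate early genes 0 rose and 1, Nr4a2, fell on its brightest probe set, against 0.544% called of all. Their median change was -0.41, with -0.55 in the arrays numbered 1 and -0.24 in those numbered 2. Of the 29, 17 (58.6%) were lower in both array numbers, against 35.4% of all tested probe sets. Klf4, a zinc finger factor, was still bright, with 8234 and 7206 at 2 h and 6107 and 5494 at 4 h, against 244 and 110.5 in control (change -0.41, adjusted p = 0.453). Dusp1, a phosphatase of MAP kinases, differed by -0.40. Jun and Klf6 had positive changes of 0.82 and 1.02 that did not pass. Ptgs2, the inducible cyclooxygenase, lay just outside the threshold, going from 243 and 432 to 92.2 and 50.6 (change -1.94, adjusted p = 0.0534).

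The comparison of 1 h with control uses 4 other arrays, so the genes that responded early could be followed into the later interval without a shared array, though both come from 1 fit with a common estimate of the spread. The arrays were still not independent in their records. Among those numbered 1, control and 2 h belong to 1 recorded experiment and 1 h and 4 h to another, with 1 h also on another chip lot, so both comparisons carry the same contrast of recorded experiments. Those numbered 2 share 1 recorded experiment. At 1 h 67 probe sets (1.14%) were higher than control, for 37 genes, and 12 (0.204%) were lower. Of the 67, 6 fell and 2 rose from 2 h to 4 h, 11.9% against 0.544% of all. The same estimate of a probe set's spread served both calls, so these shares are not on an equal footing. Nr4a2 and Cyp1b1 each count there with 2 probe sets. The median change of the 67 was -0.37, with -0.32 in the arrays numbered 1 and -0.33 in those numbered 2. Of the 67, 38 (56.7%) were lower in both numbers, against 35.4% of all. Of the 12 lower at 1 h, for 7 genes, 8 (66.7%) were higher in both numbers, against 24.3% of all. Their median change was 0.61, with 0.83 in the arrays numbered 1 and 0.36 in those numbered 2. With the recorded experiment as the block, the median of the probe sets higher at 1 h was -0.40 and that of those lower at 1 h was 0.42. Only Dcn among those 12 was called, and it fell.

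The early group was not uniform. Besides Nr4a2 and Id3, the falls among the 67 were those of Cwc25 and of the unnamed probe sets M60921_at and M60921_g_at. Cwc25, a spliceosome factor, rose from 131 and 134.5 in control to 529 and 1061 at 1 h, stood at 756 and 1914 at 2 h and fell to 118 and 462 at 4 h (change -2.24 ± 0.35 SE, adjusted p = 0.0325). M60921_g_at was at 4806 and 4348 at 1 h, 3262 and 2808 at 2 h and 1575 and 1209 at 4 h (change -1.12, adjusted p = 0.0240). Crem, a cyclic AMP response factor, had 6118 and 3892 at 2 h and 5811 and 5189 at 4 h on its brightest probe set (change 0.17, SE 0.18). The changes of Cebpb and Klf10 were -0.02 and 0.15 on 1 probe set of each. Among the genes lower at 1 h, Cited2 had positive changes of 0.88 and 0.97 and Myc of 0.61 and 0.63, none of them past the threshold. The Myc probe set at 0.63 moved in opposite directions, by 2.20 in the arrays numbered 1 and by -0.94 in those numbered 2.

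**Figure D3:**
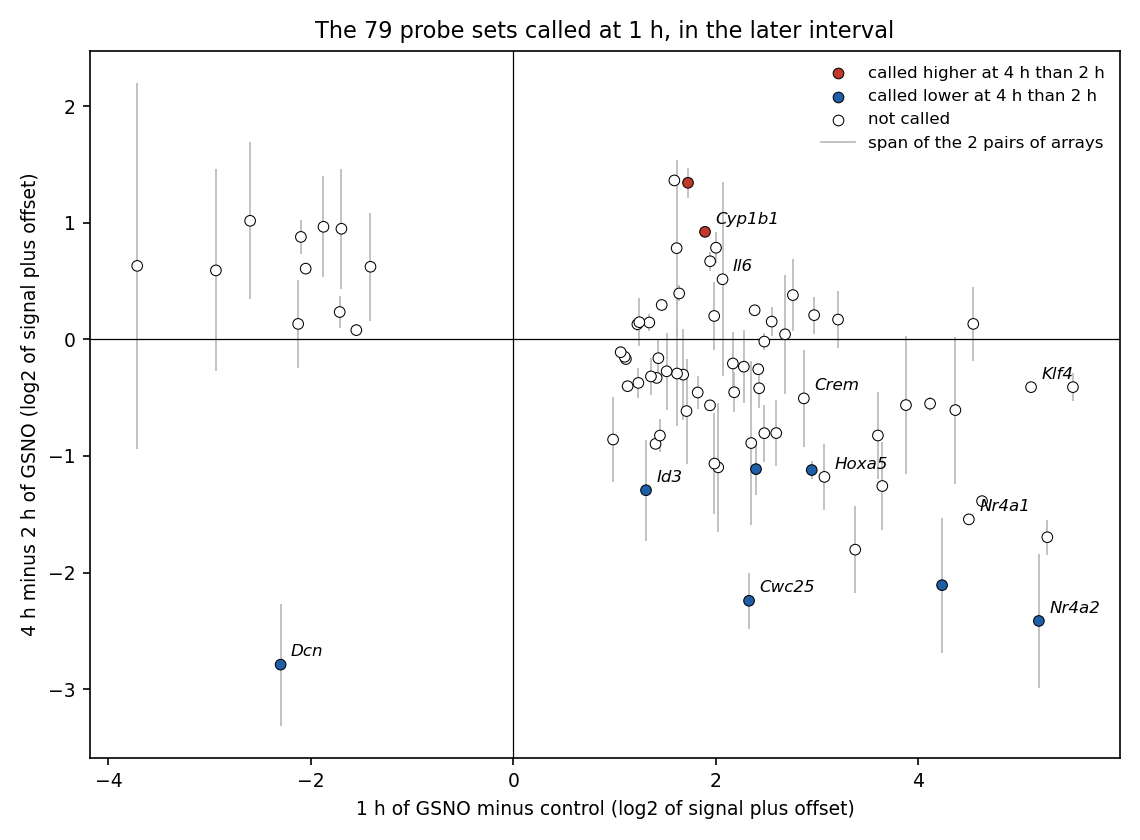
The 79 probe sets called at 1 h against control, by their change at 1 h (horizontal) and their change from 2 h to 4 h (vertical), both in log2(signal + 21.1), with a grey line joining the values of the 2 array numbers. Of the 67 probe sets on the right, 6 are called lower (blue) and 2 higher (red, both Cyp1b1), and Dcn, whose 4 h signals are too low to size its fall, is called among the 12 on the left.

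Genes of antioxidant defence and NADPH supply were among the rises. Of the 19 alternative settings, the called probe set of Nqo1 passed in 13, that of Sod2 in 9 and that of Me1 in 7. Nqo1, the quinone reductase that is a standard NRF2 target, went from 550.3 and 182 at 2 h to 3030.4 and 1709.6 at 4 h on the probe set M58495mRNA_at, against 26.5 and 35.6 in control. The change was 2.76 ± 0.43 (SE), a 6.75-fold rise (adjusted p = 0.0315), with 2.42 and 3.09 in the 2 numbers. Both 2 h arrays already lay above both 1 h arrays, at 59.6 and 89.0, and both 4 h arrays lay above both 2 h arrays. Its brightest probe set went from 4034 and 2491 to 10284 and 6713 and missed the threshold (change 1.38, adjusted p = 0.0583). Sod2, the mitochondrial superoxide dismutase, was at 199 and 239 at 2 h and at 786 and 576 at 4 h (change 1.54 ± 0.26 SE, adjusted p = 0.0402). Sod2 was also the only call among 20 inflammatory and NF-kB genes, beside 0.544% called of all tested probe sets. The median change of those genes was -0.07, with -0.23 in the arrays numbered 1 and 0.17 in those numbered 2. Before 4 h Sod2 had stayed between 158 and 239 on all 6 arrays. Me1, the malic enzyme that makes NADPH, rose from 245 and 496 to 662 and 1058 (change 1.21, adjusted p = 0.0428), and its brightest probe set gave 1.07 (adjusted p = 0.0934).

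All 28 antioxidant and NRF2-linked genes on the array were kept, and 1 of them, Sod2, rose on its brightest probe set while 0 fell and 27 did not pass, against 0.544% called of all. Nqo1 and Me1 rose on another probe set. The list's median change was 0.59, with 0.53 in the arrays numbered 1 and 0.65 in those numbered 2, against -0.09 over all tested probe sets. In both array numbers 20 of the 28 (71.4%) were higher and 2 were lower, against 24.3% and 35.4% of all. The list counts brightest probe sets and the shares of all include dim ones, so they are not on an equal footing. Counted in the same way, proteasome subunits were 65.2% higher and 8.70% lower, and immediate early genes 20.7% higher and 58.6% lower. Scaling to a common median gave a list median of 0.72, and quantile normalization 0.63. Hmox1, haem oxygenase 1, was at 11100.0 and 5984 at 2 h and at 17472 and 11324 at 4 h, against 454 and 649 in control (change from 2 h 0.79 ± 0.29 SE, adjusted p = 0.295).

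The 2 subunits of glutamate-cysteine ligase, which makes the glutathione precursor, did not pass. The catalytic subunit gene Gclc was at 2700.2 and 2527 at 2 h and 2838 and 4084 at 4 h (change 0.38), against 108 and 167 in control, and the modifier subunit gene Gclm was at 508 and 241 and then 635 and 1080.5 (change 1.19). Both moved unequally between the array numbers. The pentose phosphate enzymes Taldo1 and Tkt had changes of 0.88 (adjusted p = 0.0806) and 0.75 (adjusted p = 0.138). Txnrd1, thioredoxin reductase, had 0.49 and Gsr, glutathione reductase, 0.66. Gsta1, a glutathione transferase, had the widest difference of the list, from 588 and 2589 to 3447 and 4818, and did not pass (change 1.70, adjusted p = 0.253). Prdx6 and Mgst1 were the members lower in both numbers, by -0.21 and -0.13.

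**Figure D4:**
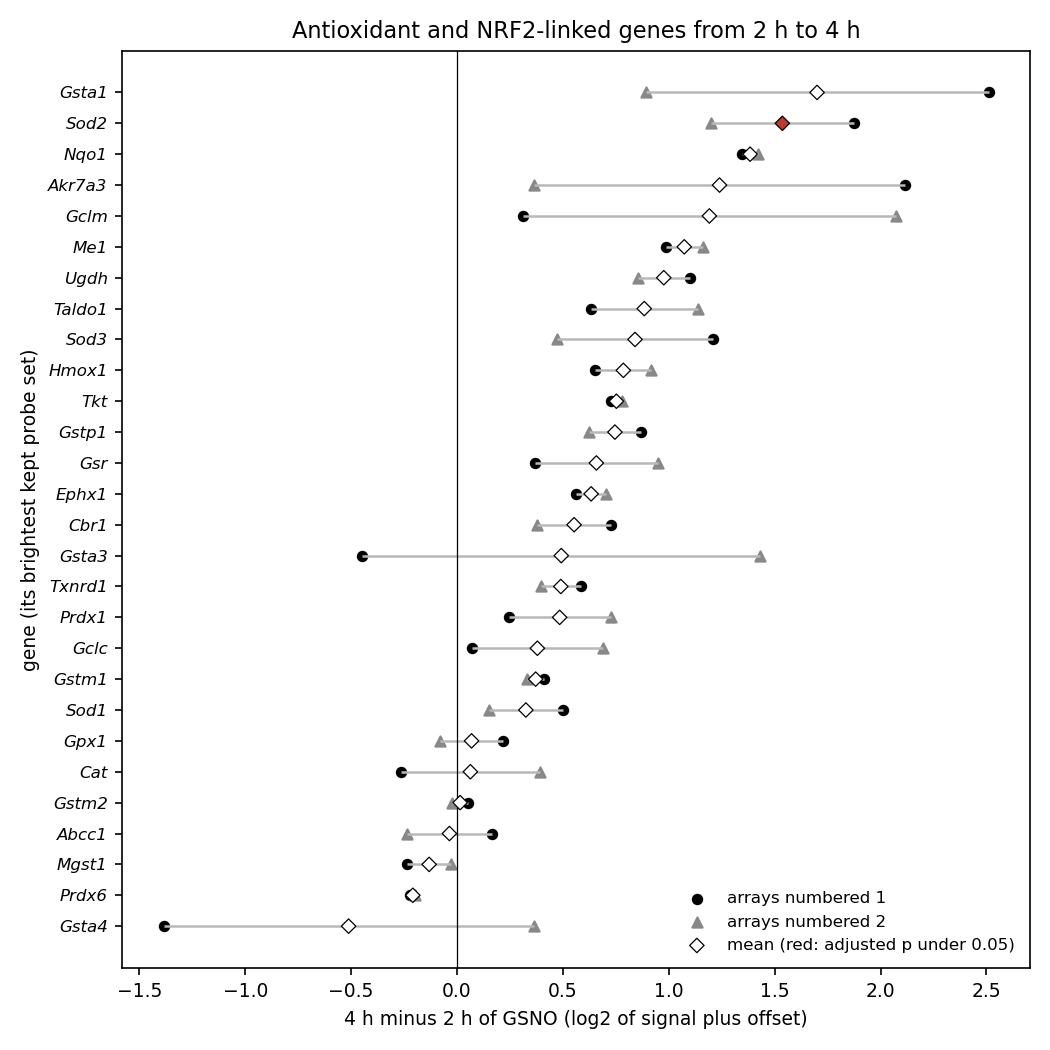
Change from 2 h to 4 h in log2(signal + 21.1) for the 28 antioxidant and NRF2-linked genes on their brightest kept probe set, with circles and triangles for the arrays numbered 1 and 2 and diamonds for their mean. Of the 28, 20 lie above 0 in both numbers, and only Sod2 (red diamond, 1.54) passed the adjusted threshold.

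Transport and intermediary metabolism gave further rises. Slc16a1, the monocarboxylate transporter that carries lactate, was at 315 and 459.9 in control, 995 and 1345 at 2 h and 2017 and 3283 at 4 h (change from 2 h 1.14 ± 0.18 SE, with 1.00 and 1.27 in the 2 numbers, adjusted p = 0.0325). Bcat1, the cytosolic branched-chain aminotransferase, rose from 550.3 and 498.6 to 1205 and 1183 (change 1.16, adjusted p = 0.0442). Gda, guanine deaminase, was at 52.4 and 52.5 at 2 h, under the 40th percentile on both arrays, and at 226 and 403 at 4 h (change 2.14, adjusted p = 0.0381). The glucose transporter Slc2a1 and the glycine transporter Slc6a9 had changes of 1.10 and 1.11 that did not pass (adjusted p = 0.211 and 0.0718). Of 32 solute carriers only Slc16a1 changed, and of 27 glycolysis and hypoxia genes it was again the only call, with a median change of 0.11, while 0.544% of all tested probe sets were called.

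Srebf1, a transcription factor that drives fatty acid synthesis, was at 103 and 61.9 at 2 h and at 451 and 255 at 4 h (change 1.83 ± 0.31 SE, with 1.92 and 1.73 in the 2 numbers, adjusted p = 0.0428). It was the only call among 21 genes of sterol synthesis and SREBP targets, beside 0.544% called of all tested probe sets. The median change of that list was -0.02. Scd, a stearoyl-CoA desaturase, had the next widest difference in that list, 1.18, and did not pass (adjusted p = 0.182). The probe set AF036761_g_at, which the annotation assigns to several stearoyl-CoA desaturase genes and which is therefore left unnamed, rose from 193 and 95.6 to 1013 and 749 (change 2.50 ± 0.27 SE, with 2.27 and 2.72 in the 2 numbers, adjusted p = 0.00819). The sister probe set assigned to Scd2 alone went from 625 and 401 to 1747 and 905 and lay just outside the threshold (change 1.29, adjusted p = 0.0530), while the brightest probe set of Scd2 had a change of 0.37. The enzymes of sterol synthesis Sqle, Fdft1 and Msmo1 changed by -0.19, 0.14 and -0.31, none of them past the threshold. Idi1, another enzyme of that list, had its lowest change, -0.83 (-0.97 and -0.68 in the 2 numbers, adjusted p = 0.260). It was called higher than control at 1 h and at 2 h.

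Txnip, which encodes the inhibitor of thioredoxin and of glucose uptake, rose after a fall. It was at 567 and 1874 in control, 173 and 656 at 1 h, 103 and 118 at 2 h and 483 and 988 at 4 h, so that 2 h was the low point in both numbers. The change from 2 h to 4 h was 2.44 ± 0.36 (SE), a 5.43-fold rise (adjusted p = 0.0259), with 2.02 and 2.86 in the 2 numbers. Against control, which shares the 2 h and 4 h arrays in turn, the change was -3.01 at 2 h (adjusted p = 9.72e-04) and -0.57 at 4 h (adjusted p = 0.399). The difference between its last step and the step from 1 h to 2 h did not pass.

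Cyp1b1, a cytochrome P450 of the aryl hydrocarbon response, was called on 2 probe sets. On U09540_at it was at 588 and 554 in control, 2606 and 1817 at 1 h, 6058 and 4652 at 2 h and 11599 and 8753 at 4 h, higher at each longer exposure in both numbers (change from 2 h 0.92 ± 0.16 SE, with 0.93 and 0.91 in the 2 numbers, adjusted p = 0.0442). On X83867cds_s_at the change was 1.34, and on 2 further probe sets it was 0.67 and 0.20 and was not called. Of 6 measured genes of that response it alone passed on its brightest probe set, and Nqo1 passed on another, beside 0.544% called of all. Fgfr1, a fibroblast growth factor receptor, was at 1127 and 1811 at 2 h and at 4066 and 3599 at 4 h on S54008_i_at (change 1.41 ± 0.22 SE, with 1.83 and 0.98 in the 2 numbers, adjusted p = 0.0315). A second, D12498_s_at, gave 0.88 (adjusted p = 0.0663). Fgfr1 and Tnfrsf11b were the calls among 37 measured growth factors and receptors, Fgfr1 not on its brightest probe set, beside 0.544% called of all. In that list Nrg1, a ligand of the ErbB receptors, went from 329.7 and 799.97 to 125 and 204 and did not pass (change -1.56, adjusted p = 0.0619).

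The start regions of 2 rising genes are shown because each holds the antioxidant response element core. RefSeq (GRCr8) held a start region for 8 of the 10 genes that rose, with 10 regions in all, and for 12 of the 16 that fell, with 12 regions. The core TGACNNNGC was in 3 of the 10 regions of rising genes (Me1, Slc16a1 and Sod2) and in 2 of the 12 of falling genes (Gucy1b1 and Agtr1a), against 15.3% of the regions of all tested genes. It begins 167 bases before the start of Me1 as TGACTCAGC, and on the opposite strand it lies 223 bases before that of Slc16a1, where it overlaps an E-box, CACGTG. The cyclic AMP response element TGACGTCA was in 0 regions of either group, against 15.2% (5 of 33) for the genes higher at 1 h, 2.71% of the regions of all tested genes and 1.83% of all promoters in the table. These matches are descriptions of the letters in the window and not of binding. Capitals mark the matches.
Me1, chr8:96540195-96540494, minus strand: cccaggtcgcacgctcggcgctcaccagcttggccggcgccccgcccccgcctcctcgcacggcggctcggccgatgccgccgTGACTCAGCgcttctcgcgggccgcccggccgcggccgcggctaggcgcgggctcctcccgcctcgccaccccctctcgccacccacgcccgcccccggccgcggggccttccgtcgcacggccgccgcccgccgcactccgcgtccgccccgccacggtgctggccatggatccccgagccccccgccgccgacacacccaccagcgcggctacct
Slc16a1, chr2:194812410-194812709, plus strand: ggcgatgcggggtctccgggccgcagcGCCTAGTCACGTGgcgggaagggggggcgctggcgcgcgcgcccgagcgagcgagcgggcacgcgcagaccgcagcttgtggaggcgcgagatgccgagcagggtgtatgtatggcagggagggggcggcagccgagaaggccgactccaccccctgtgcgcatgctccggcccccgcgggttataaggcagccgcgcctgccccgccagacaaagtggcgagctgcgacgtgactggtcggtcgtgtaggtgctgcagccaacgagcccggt

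Other gene groups gave 0 calls in either direction on limma's adjusted p. With 0.544% of all tested probe sets called, 0 calls in groups of this size say little. They were heat shock proteins (16 measured genes), genes of the unfolded protein response and the integrated stress response (24), the cell cycle (33), p53 targets (6), the circadian clock (10), MAP kinase feedback inhibitors (10), prostaglandin synthesis (8), ion channels (29), ribosomal proteins (36), proteasome subunits (23) and mitochondrial respiration (33). Ribosomal protein genes had a median change of 0.03 and lay between -0.42 and 0.31. Proteasome subunits had a median change of 0.15, and 15 of the 23 (65.2%) were higher in both numbers, against 24.3% of all. Their median was close in both numbers, 0.20 and 0.16. Respiratory chain genes had a median of 0.08, with 39.4% of them higher in both numbers and 9.09% lower. Of the ribosomal protein genes 38.9% were higher in both numbers and 11.1% lower. Several of the widest differences in these groups were unequal between the array numbers. Hspa1a, an inducible heat shock protein, was at 233 and 189 at 2 h and at 14.3 and 266 at 4 h, and Top2a, topoisomerase 2 alpha, at 513 and 310.3 and then 389 and 51.9. The clock genes Bmal1 and Bhlhe41 differed the same way in both numbers, by 1.28 and -1.27, without passing (adjusted p = 0.293 and 0.186). The other members with the widest differences, none of which passed, were the heat shock factor Hsf1 (-1.09), the amino acid transporter Slc7a1 (-1.08) and the disulfide isomerase Pdia4 (-1.01) of the stress lists, Wee1 (-0.97) of the cell cycle, and Gdf15 (-0.89) and Gadd45a (0.49) of the p53 targets. They were also Errfi1 and Rgs4 (-0.82 each) of the feedback inhibitors, the phospholipase Pla2g4a (-1.21), and the channels Kcna4 (-1.42) and Cacna1g (-1.24). The narrower groups were led by Rpl21 (-0.42) and Rpl5 (-0.35), Psmb1 (0.44) and Psmb9 (-0.39), and Vdac1 (0.60) and Cox6c (0.58). Over all tested probe sets 752 had an unadjusted p under 0.05.

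The step from 2 h to 4 h was also set against the step from 1 h to 2 h, which covers 1 h less and shares the 2 h arrays with it. In the arrays numbered 1 both steps cross between the recorded experiments, in opposite directions, so their difference carries that contrast from both. From 1 h to 2 h 2 probe sets rose (0.0340%), 1 each of Cyp1b1 and Nqo1, and 0 fell. The difference between the 2 steps passed for 0 probe sets (limma, smallest adjusted p = 0.0816, for Dcn), with 348 at an unadjusted p under 0.05. No gene's change is therefore shown to differ between the earlier and the later step. Just inside the threshold of the main comparison lay Nr4a3, at an adjusted p of 0.0461, and just outside it Tgfb3, at 0.0508. Rasl11a, a Ras-like GTPase, was also just outside, with 329.8 and 1078 at 2 h and 89.9 and 52.6 at 4 h (change -2.78, adjusted p = 0.0530), as was Higd1a, a mitochondrial protein induced by hypoxia, with 794 and 1149 and then 1608 and 4017 (change 1.39, adjusted p = 0.0690).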

How the data were processed

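Signals were deposited by the authors as linear intensity values, made with MAS 5.0 software from Affymetrix rat U34 arrays of the A set, per the labels' protocols and the series design. The 2% trimmed mean was near 500 (499.979 to 499.986) on all 8 arrays, and no further scaling was applied. Of 8799 probe sets 7018 have 1 symbol in the platform annotation, 308 several and 1473 none. Of the symbols' gene IDs 6994 matched the RefSeq table.

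log2(signal + 21.1) was fitted in limma 3.58.1 (R 4.3.3) on all 8 arrays with group and array number as terms (3 residual degrees of freedom), empirical Bayes with trend, and Benjamini-Hochberg adjustment over 5877 probe sets with a threshold of 0.05. The scripts were tested on simulated data. Array numbers were used as a pairing because same-numbered arrays deviated together in all 6 pairs of groups (r = 0.387 to 0.569, and 0.449 for 2 h with 4 h). A fold change is on the log2(signal + 21.1) scale. A list counts each gene on its brightest kept probe set, while the values over all count every tested probe set, dim ones included. The text names every called gene, the 2 members of each list with the widest change, and the 5 probe sets just outside the threshold in each direction, and other members named as examples were chosen after their values were seen. The comparison, members and lists were chosen with earlier results of these data known. The number of arrays limits the precision, and no pair of arrays was identical. Start regions are from RefSeq (GRCr8). Alternatives covered the block, the arrays fitted, the offset, the filter, the scaling, the variance model and each array left out.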

Additional observations from a re-analysis of the deposited data

How the results depend on the processing

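The calls from 2 h to 4 h (12 higher, 20 lower) had the same sign in every setting that tested them (31 of the 32 under the filter at the 60th percentile). All settings refit the same arrays, so a kept sign adds little. The number past the threshold moved widely. With no replicate block it was 0 and 0. Taking the recorded experiment for the block gave 0 and 1. Fitting only the 4 arrays compared, with the replicate block, gave 61 and 40. A 4 times smaller offset gave 7 and 14, a filter at the 60th percentile 8 and 13, a common median 13 and 10, quantile normalization 7 and 16, and no variance trend 1 and 1. Leaving out 1 array at a time, where the lone array is assumed to vary like the other groups, gave 0 to 31 higher and 1 to 71 lower; the lowest values came without 2 h array 2, and the highest without 4 h array 2. Without 2 h array 1 they were 4 and 7, without 4 h array 1 they were 14 and 47, and without either 1 h array 6 and 16 or 7 and 18. The remaining alternatives stayed within 1.5 times of both counts, and the cause of these shifts was not tested.

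The difference between the steps had 0 calls in the fit used, 1 with robust variance and 0 to 2 with 1 array left out. The median change of the probe sets higher at 1 h was -0.37. In alternatives chosen after seeing the data it was -0.40 with a block by recorded experiment, -0.36 with 4 times the offset, -0.35 with the filter at the 60th percentile, -0.25 with a common median and -0.35 with quantile normalization, and -0.44 to -0.29 with 1 array left out. In the arrays numbered 2 alone the sign turned for Hspa1a (0.45), Wee1 (0.016), Rgs4 (0.10), Cacna1g (0.31) and Psmb9 (0.041), none of which had passed. With 1 array left out, Hspa1a ranged from -2.81 to 0.42, Rgs4 from -1.80 to 0.16, Pla2g4a from -2.56 to 0.15, Cacna1g from -2.82 to 0.33 and Psmb9 from -0.79 to 0.015, the positive end in each without 4 h array 1. Signals near an array's 20th percentile limit what can be said of dim probe sets.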
